A study of Mus musculus with 15 samples.

Results

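Extracellular matrix and stellate cell genes were followed in the liver of wild type mice and in the liver and liver tumors of mice that lack MAT1A. The set holds 35 genes, chosen by symbol for their roles in the collagen scaffold, its modification and breakdown, and the contractile and receptor proteins of the cells that make it. They were chosen with earlier results of these data known. A probe set was used where the array annotation gives it 1 gene symbol only, and the probe sets of a gene were averaged. In this way 34 of the 35 genes were measured, with 68 of the 20380 probe sets used and among 12393 genes in all, and Fbn1, which encodes fibrillin, was not analysed here.

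Each of the 3 groups holds 5 Affymetrix arrays, 1 per sample, from mice of the C57B6SJL background at 15 months of age. The groups are healthy liver of wild type mice, peritumoral liver of MAT1A knockout (KO) mice with hepatocellular carcinoma, and tumors of such mice, labelled as hepatocellular carcinoma. MAT1A makes S-adenosylmethionine (SAMe), the methyl donor of the cell, in adult liver, and the knockout is carried by both tissues of the KO mice. The sex of the mice was not stated, and the labels do not say whether a tumor and a peritumoral sample of the same number come from 1 animal. Values are log2 levels made by robust multi-array average (RMA), so a difference of 1 is a 2-fold difference, and levels of different genes are not set against each other, since each probe set has its own sensitivity.

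In a healthy liver the scaffold is sparse, and hepatic stellate cells lie between hepatocytes and sinusoids and store vitamin A. After injury they turn into myofibroblasts that secrete fibrillar collagens, proteoglycans and crosslinking enzymes, carry receptors for platelet-derived growth factor (PDGF), and contract through smooth muscle actin, with transforming growth factor beta (TGF-beta) as their main stimulus. Portal fibroblasts, endothelial cells and bile duct cells make parts of the same matrix, and hepatocytes secrete plasma fibronectin.

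Promoter sequences of 22 of the 34 genes are in the RefSeq table of build GRCm38.p6, as 24 windows from 250 bases before to 50 bases after a start. The last 150 bases before the start are shown for 4 genes that stood out in a single tumor or in 1 wild type array, 5′ to 3′ on the strand of the gene. Capitals mark the TATA box letters TATAAA, the CCAAT box, the GC box GGGCGG and the SMAD-binding letters CAGACA, or their reverse complements.
Col1a2 (chr6:4505468-4505617, plus strand): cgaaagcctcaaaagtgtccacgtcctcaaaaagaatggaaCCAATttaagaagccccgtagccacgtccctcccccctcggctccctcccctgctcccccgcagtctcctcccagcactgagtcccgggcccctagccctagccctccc
Col3a1 (chr1:45311388-45311537, plus strand): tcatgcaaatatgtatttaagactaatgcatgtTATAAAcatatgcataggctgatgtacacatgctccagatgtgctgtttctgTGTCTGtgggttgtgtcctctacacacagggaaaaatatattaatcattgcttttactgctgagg
Timp1 (chrX:20870016-20870165, plus strand): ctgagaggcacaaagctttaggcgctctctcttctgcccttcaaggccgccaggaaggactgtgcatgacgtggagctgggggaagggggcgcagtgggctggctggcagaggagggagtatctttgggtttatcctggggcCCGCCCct
Vim (chr2:13574161-13574310, plus strand): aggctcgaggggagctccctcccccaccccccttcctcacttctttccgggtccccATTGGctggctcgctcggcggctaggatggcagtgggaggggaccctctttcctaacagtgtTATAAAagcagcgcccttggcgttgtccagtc
In Vim a TATAAA began 32 bases before the start and a reversed CCAAT 94 bases before it, in Col1a2 a CCAAT lay 109 bases before, in Col3a1 a TATAAA began 117 and a reversed CAGACA 65 bases before, and in Timp1 a reversed GGGCGG began 8 bases before. Searched on both strands of the whole windows, GGGCGG was in 62.5% of the 24 windows against 35.7% of all 32851 promoter windows of that length, CCAAT in 41.7% against 37.4%, CAGACA, which SMAD proteins can bind, in 20.8% against 21.0%, and TATAAA in 12.5% against 13.6%. The AP-1 site TGANTCA was in 4.17% (Col6a1) against 7.81%, and the CArG box, the site of serum response factor, in 0 of 24 against 1.63%. A match is a description of these letters and no measured site. Col4a1 and Col4a2 lie on opposite strands of chromosome 8 with starts 21 bases apart, at 11312826 and 11312805, so their windows share 78 bases.

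Array medians ranged from 5.47 to 5.68 over the 15 arrays. The mean correlation of an array with the others of its group was between 0.929 (tumor 2) and 0.984. Wild type 4, peritumoral 2, tumor 2 and tumor 5 were the lowest of their groups or close to it, at 0.963, 0.938, 0.929 and 0.931. The targeted gene, Mat1a, stood between 12.25 and 12.72 in wild type liver and lower in all 10 KO arrays, at 8.84, 11.44, 9.02, 8.99 and 9.29 in peritumoral liver 1 to 5 and at 8.72, 10.47, 8.63, 8.33 and 10.50 in tumors 1 to 5. Peritumoral 2, tumor 2 and tumor 5 were thus above the other KO arrays, and whether its probes target deleted sequence was not stated. Counts, median ratios and some single ratios are given with and without these arrays. Tumor 3 was among the low arrays. The albumin gene Alb stood between 14.5 and 14.7 in all arrays. Groups were compared with limma, with p-values adjusted by the Benjamini-Hochberg method over all 12393 genes and called under 0.05. The comparisons of tumors and of peritumoral liver with wild type liver share the 5 wild type arrays, so they are not independent of each other.

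A single tumor stood apart in the matrix genes. Tumor 3 was the highest of the 15 arrays for 23 of the 34 genes, against 5.94% of all genes, and lay at least 2-fold above each of the other 14 arrays for 11 genes, against 0.75% of all genes. It was the highest of the 5 tumors for 31 genes, against 15.7% of all genes, the exceptions being Fn1, Des and Pdgfra. Over the 34 genes its mean log2 ratio to the wild type mean was 1.88, while that of the other 4 tumors lay between -0.27 (tumor 5) and 0.40 (tumor 4), and its median over all genes was -0.10. Of the 68 probe sets, 39 were highest in tumor 3, and in 19 genes every probe set was. Tumor 3 is 1 sample, so these values have no replicate and no test. The genes were chosen with earlier results of these data known, so the shares of all genes are a scale and no independent support. It was also the highest of the 15 arrays for 5 of 6 bile duct markers and for 0 of 15 leukocyte and Kupffer cell markers, and the part of other cells in its matrix values was not tested. With whole pieces of tissue, a larger number of matrix-making cells cannot be told apart from more RNA in each of them.

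**Figure D1:**
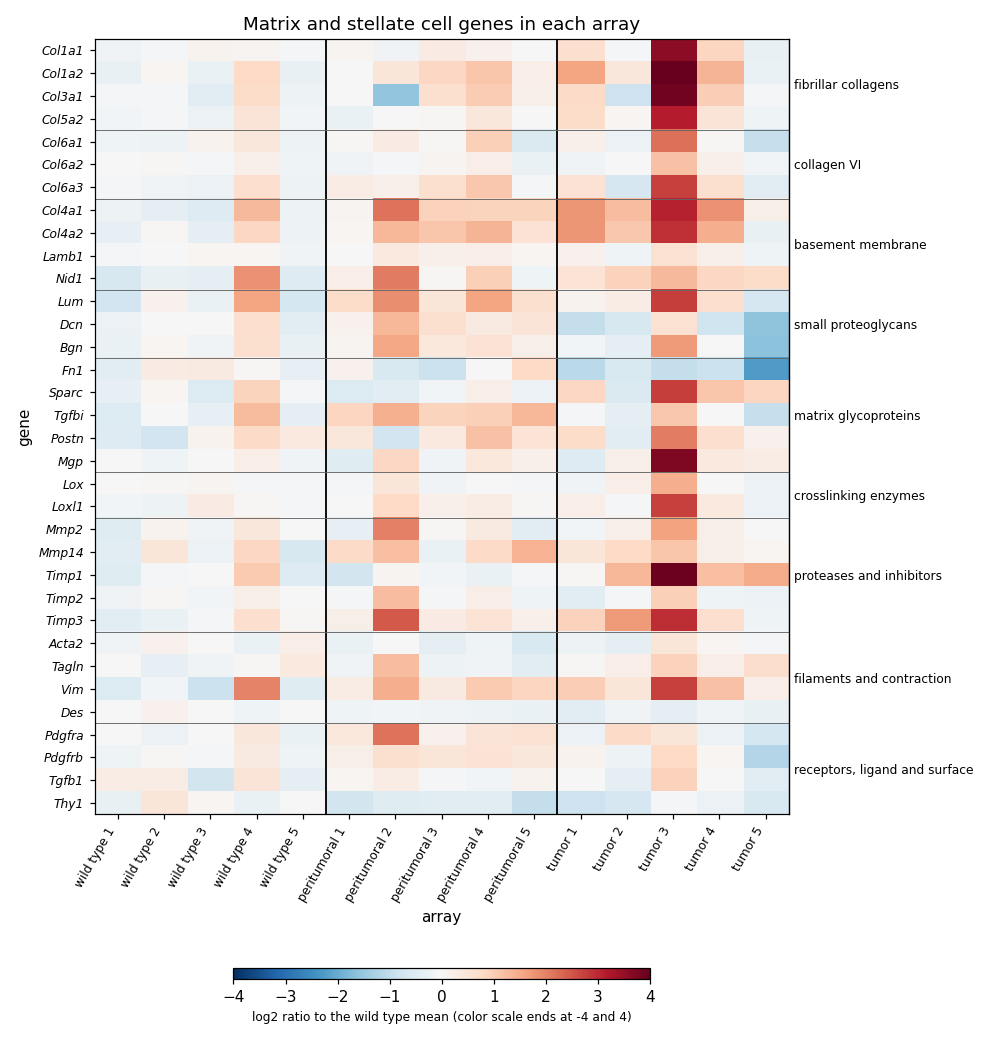
Heat map of the 34 measured genes (rows, grouped by role) in the 15 arrays (columns), colored by the log2 ratio of each array to the mean of the 5 wild type arrays. Tumor 3 carries the darkest red, with a mean ratio of 1.88 over the genes, and wild type 4 and peritumoral 2 stand out in their groups with means of 0.57 and 0.70.

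The fibrillar collagens showed this most. Col1a1 and Col1a2 encode the chains of type I collagen, the main collagen of scars, Col3a1 the chain of type III collagen, and Col5a2 a chain of type V collagen, which helps start fibrils. Col1a1 stood at 4.5, 4.59, 4.77, 4.75 and 4.57 in wild type liver 1 to 5, at 4.73, 4.49, 4.96, 4.80 and 4.66 in peritumoral liver 1 to 5 and at 5.32, 4.57, 8.21, 5.48 and 4.34 in tumors 1 to 5. Tumor 3 was 11.9-fold above the wild type mean, tumors 1 and 4 were above every wild type and peritumoral array, and tumors 2 and 5 were within or below their range. Col1a2 stood at 5.17, 5.55, 5.21, 6.25 and 5.16 in wild type liver 1 to 5, at 5.49, 5.95, 6.30, 6.58 and 5.73 in peritumoral liver 1 to 5 and at 7.06, 5.94, 10.34, 6.83 and 5.20 in tumors 1 to 5. Tumor 3 was 29.4-fold above the wild type mean, and tumors 1 and 4 were again above all 10 arrays of the other groups. Col3a1 stood at 5.80, 5.79, 5.41, 6.58 and 5.65 in wild type liver 1 to 5, at 5.83, 4.26, 6.49, 6.87 and 6.09 in peritumoral liver 1 to 5 and at 6.61, 5.02, 9.69, 6.82 and 5.82 in tumors 1 to 5, with tumor 3 at 14.4-fold over the wild type mean and peritumoral 2 the lowest array. For Col5a2 the arrays stood at 4.25, 4.27, 4.12, 4.86 and 4.24 in wild type liver 1 to 5, at 4.08, 4.34, 4.40, 4.81 and 4.35 in peritumoral liver 1 to 5 and at 5.07, 4.42, 7.49, 4.88 and 4.16 in tumors 1 to 5, with tumor 3 at 8.81-fold and wild type 4 the highest of its group. Each of these genes was averaged over 2 probe sets, of which the dimmer had a low level in wild type liver, so the folds are approximate. By single probe set they were 11.2 and 12.6 for Col1a1, 44.3 and 19.5 for Col1a2, 10.6 and 19.4 for Col3a1 and 6.75 and 11.5 for Col5a2, the dimmer one first. None of the 4 genes passed in any comparison. The log2 ratio of tumors to wild type liver was 0.95 (SE 0.61, adjusted p 0.442) for Col1a1, and it was 0.29 when tumor 3 was left out.

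Collagen VI, a beaded filament around cells, has chains encoded by Col6a1, Col6a2 and Col6a3, all highest in tumor 3. Col6a2 stood at 6.84, 6.88, 6.78, 7.04 and 6.68 in wild type liver 1 to 5, at 6.70, 6.79, 6.96, 7.11 and 6.56 in peritumoral liver 1 to 5 and at 6.70, 6.86, 8.0, 7.05 and 6.74 in tumors 1 to 5, and Col6a3 at 5.57, 5.49, 5.40, 6.31 and 5.43 in wild type liver 1 to 5, at 5.93, 5.84, 6.29, 6.71 and 5.57 in peritumoral liver 1 to 5 and at 6.23, 4.97, 8.37, 6.28 and 5.20 in tumors 1 to 5. Tumor 3 was 2.23-fold over the wild type mean for Col6a2, 6.65-fold for Col6a3 and 4.59-fold for Col6a1, and in all 3 genes the other 4 tumors overlapped wild type liver.

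Of the basement membrane genes, Col4a1 and Col4a2 were high in tumors 1 and 4 as well as in tumor 3. Col4a1 and Col4a2 encode the main chains of type IV collagen, the network of basement membranes. Col4a1 stood at 6.38, 6.17, 6.06, 7.85 and 6.37 in wild type liver 1 to 5, at 6.69, 8.75, 7.50, 7.45 and 7.45 in peritumoral liver 1 to 5 and at 8.32, 7.81, 9.64, 8.40 and 6.80 in tumors 1 to 5. Tumors 1, 3 and 4 were above all wild type arrays, tumors 2 and 5 lay within the range that wild type 4 sets, and each of the other 4 wild type arrays was below every tumor. The ratio was 1.63 (SE 0.50, adjusted p 0.154) for Col4a1 and 1.38 (SE 0.50, adjusted p 0.207) for Col4a2, which stood at 5.68, 6.06, 5.68, 6.86 and 5.83 in wild type liver 1 to 5, at 6.11, 7.35, 7.12, 7.37 and 6.59 in peritumoral liver 1 to 5 and at 7.78, 7.09, 8.95, 7.47 and 5.73 in tumors 1 to 5. Nid1, the gene of nidogen, which ties laminin to type IV collagen, stood at 5.51, 5.84, 5.74, 7.99 and 5.64 in wild type liver 1 to 5, at 6.40, 8.23, 6.20, 7.11 and 5.97 in peritumoral liver 1 to 5 and at 6.70, 7.05, 7.45, 6.97 and 6.88 in tumors 1 to 5. Wild type 4 and peritumoral 2 were the highest arrays of Nid1, and tumor 3 was next. Lamb1, a laminin chain, was 1.53-fold above the wild type mean in tumor 3.

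When wild type 4 was left out, Nid1 passed in tumors against wild type liver, at a ratio of 1.33 on the log2 scale (adjusted p 0.00402), and it was the 1 gene of the 34 that did, against 1.49% of all genes called higher in that fit. The 2 probe sets of Nid1 differed, with log2 ratios of 0.33 and 1.41 over all arrays, so the size of its averaged ratio is approximate. Without wild type 4 and tumor 3 the log2 ratios were 1.59 (adjusted p 0.0458) for Col4a1, 1.22 (0.00244) for Nid1 and 1.22 (0.0364) for Vim, so 3 genes passed, against 1.66% of all genes called higher. The setting without both arrays was chosen after the values had been seen.

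Among the small leucine-rich proteoglycans, which regulate the growth of collagen fibrils, lumican (Lum) and biglycan (Bgn) were highest in tumor 3, at 6.81-fold and 3.29-fold above the wild type mean, and decorin (Dcn) was not. Dcn stood at 10.48, 10.74, 10.70, 11.37 and 10.29 in wild type liver 1 to 5, at 10.90, 12.04, 11.35, 11.07 and 11.24 in peritumoral liver 1 to 5 and at 9.76, 10.07, 11.33, 9.91 and 9.12 in tumors 1 to 5. The 4 tumors other than tumor 3 were all below every wild type and peritumoral array, while tumor 3 lay among the peritumoral ones. The ratio of tumors to peritumoral liver was -1.28 (SE 0.37, adjusted p 0.295), and -1.60 without tumor 3. Tumor 5 was the lowest of the 15 arrays for Dcn and Bgn.

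Of the matrix glycoproteins, Fn1 and Tgfbi did not have their highest level in tumor 3. Fn1 encodes fibronectin. It stood at 8.49, 9.28, 9.31, 8.99 and 8.63 in wild type liver 1 to 5, at 9.11, 8.34, 8.09, 8.97 and 9.75 in peritumoral liver 1 to 5 and at 7.85, 8.32, 7.99, 8.07 and 6.68 in tumors 1 to 5. All 5 tumors were below all 5 wild type arrays. This was the 1 case among the 34 genes without overlap on the lower side, against 2.84% of all genes, so the count is near that share. On the higher side there was none, against 2.23% of all genes. The ratio of -1.16 (SE 0.30, adjusted p 0.102) did not pass, and tumor 5 was far below the other tumors. Without tumor 5 the ratio was -0.88. Fn1 was averaged over 2 probe sets, with ratios of -0.92 for the brighter and -1.39 for the dimmer over all arrays. In the dimmer one tumor 2, at 4.92, was above wild type 1, at 4.86, so the groups overlapped there. The ratio of Fn1 is thus approximate. With an array weight for each sample Fn1 passed, at -0.97 with an adjusted p of 0.0159. Tgfbi encodes a TGF-beta-induced adhesion protein and stood at 7.05, 7.59, 7.27, 8.87 and 7.19 in wild type liver 1 to 5, at 8.46, 9.01, 8.49, 8.55 and 8.94 in peritumoral liver 1 to 5 and at 7.51, 7.19, 8.66, 7.60 and 6.67 in tumors 1 to 5. In peritumoral liver it lay above 4 of the 5 wild type arrays, and the tumors other than tumor 3 stood between 6.67 and 7.60.

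The other glycoproteins were highest in tumor 3. Sparc, a collagen-binding protein of remodeling tissue, stood at 9.33, 7.91, 11.24, 9.58 and 9.35 in tumors 1 to 5, and all tumors but tumor 2 were above every peritumoral array and close to or above wild type 4, at 9.37. Mgp, matrix Gla protein, an inhibitor of calcification, stood at 5.51, 5.30, 5.48, 5.76 and 5.35 in wild type liver 1 to 5, at 5.00, 6.30, 5.35, 5.90 and 5.69 in peritumoral liver 1 to 5 and at 4.97, 5.71, 9.20, 5.87 and 5.78 in tumors 1 to 5. Tumor 3 was 13.2-fold above the wild type mean and the other 4 tumors overlapped wild type liver. Postn, which encodes periostin, was 4.16-fold above the wild type mean in tumor 3 and within the range of the other groups in the other 4 tumors.

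The crosslinking enzymes lysyl oxidase (Lox) and Loxl1 oxidize lysines of collagen and elastin. Lox stood at 3.80, 3.86, 3.93, 3.73 and 3.73 in wild type liver 1 to 5, at 3.74, 4.28, 3.68, 3.79 and 3.74 in peritumoral liver 1 to 5 and at 3.67, 4.06, 5.28, 3.80 and 3.57 in tumors 1 to 5, and Loxl1 at 4.19, 4.08, 4.63, 4.33 and 4.22 in wild type liver 1 to 5, at 4.30, 5.10, 4.49, 4.59 and 4.34 in peritumoral liver 1 to 5 and at 4.57, 4.20, 7.02, 4.69 and 4.06 in tumors 1 to 5. In both genes tumor 3 was the highest array, peritumoral 2 the next, and the other 13 arrays stood between 3.57 and 4.06 for Lox and between 4.06 and 4.69 for Loxl1.

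Proteases and their inhibitors were highest in different arrays. Timp1, the inhibitor of metalloproteinases that activated stellate cells secrete, stood at 4.33, 4.77, 4.79, 5.86 and 4.28 in wild type liver 1 to 5, at 4.09, 4.91, 4.70, 4.54 and 4.73 in peritumoral liver 1 to 5 and at 4.86, 6.13, 8.73, 6.02 and 6.31 in tumors 1 to 5. Tumors 2, 3, 4 and 5 were above every wild type and peritumoral array, and tumor 3 was 15.2-fold above the wild type mean, while tumor 1 was within the range of the other groups. The log2 ratio was 1.60 (SE 0.62, adjusted p 0.229) against wild type liver and 1.82 (SE 0.58, adjusted p 0.376) against peritumoral liver, and 1.02 and 1.24 without tumor 3. Timp3, an inhibitor bound to the matrix, stood at 4.89, 5.08, 5.29, 6.02 and 5.39 in wild type liver 1 to 5, at 5.55, 7.79, 5.67, 5.89 and 5.54 in peritumoral liver 1 to 5 and at 6.25, 7.03, 8.29, 6.01 and 5.16 in tumors 1 to 5. Tumors 1, 2 and 3 were above every wild type array, and peritumoral 2 stood between tumors 2 and 3.

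Mmp2, a gelatinase, stood at 4.68, 5.31, 5.01, 5.60 and 5.19 in wild type liver 1 to 5, at 4.84, 7.18, 5.20, 5.51 and 4.73 in peritumoral liver 1 to 5 and at 5.04, 5.41, 6.77, 5.39 and 5.14 in tumors 1 to 5, with peritumoral 2 above tumor 3. Timp2, which binds the proenzyme of Mmp2, stood at 5.91, 6.11, 5.96, 6.29 and 6.06 in wild type liver 1 to 5, at 6.01, 7.30, 6.03, 6.34 and 5.90 in peritumoral liver 1 to 5 and at 5.63, 6.0, 7.01, 5.88 and 5.82 in tumors 1 to 5, again with peritumoral 2 above tumor 3. The highest level of Mmp14, the membrane protease that activates Mmp2, was in peritumoral 5, at 8.67, with 8.39 in tumor 3 and 6.88, 7.77, 7.05, 8.13 and 6.64 in wild type liver 1 to 5.

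Of the filament and contractile genes, Vim stood far higher in tumor 3 than in wild type liver, and Acta2, Des and Tagln did so less or not at all. Acta2, smooth muscle actin, the usual marker of a myofibroblast, stood at 5.37, 5.69, 5.48, 5.24 and 5.77 in wild type liver 1 to 5, at 5.24, 5.5, 5.14, 5.33 and 4.91 in peritumoral liver 1 to 5 and at 5.30, 5.12, 6.0, 5.59 and 5.45 in tumors 1 to 5. Tumor 3 was the highest array, at 1.4-fold above the wild type mean with both probe sets averaged, and the groups overlapped. The 2 probe sets differed, with means of 7.02 and 3.80 over all arrays, so the average holds a dim one. In tumor 3 the brighter probe set read 8.48, above its range of 6.31 to 7.85 in the other 14 arrays, and the dimmer probe set, at 3.52, was within its range. Des, desmin, a filament of rodent stellate cells and of muscle, stood at 5.08, 5.23, 5.04, 4.89 and 5.02 in wild type liver 1 to 5, at 4.87, 4.95, 4.92, 4.84 and 4.78 in peritumoral liver 1 to 5 and at 4.60, 4.91, 4.65, 4.92 and 4.76 in tumors 1 to 5. The lowest arrays were tumors 1 and 3, and the ratio of tumors to wild type liver was -0.28 (SE 0.10, adjusted p 0.196).

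Tagln, transgelin, an actin-binding protein of contractile cells, stood at 6.24, 5.88, 6.09, 6.26 and 6.62 in wild type liver 1 to 5, at 6.09, 7.47, 6.03, 6.09 and 5.78 in peritumoral liver 1 to 5 and at 6.26, 6.48, 7.13, 6.48 and 6.93 in tumors 1 to 5, with peritumoral 2 the highest array and tumor 3 the next. Vim, vimentin, the filament of mesenchymal cells and also of leukocytes, stood at 6.64, 7.06, 6.32, 9.16 and 6.70 in wild type liver 1 to 5, at 7.47, 8.62, 7.55, 8.23 and 8.05 in peritumoral liver 1 to 5 and at 8.17, 7.65, 9.92, 8.34 and 7.44 in tumors 1 to 5. Tumor 3 was 6.70-fold over the wild type mean, wild type 4 was the second highest of the 15, and all other wild type arrays were below every knockout sample.

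The last genes encode growth factor receptors, a ligand and a surface protein. Pdgfra, a PDGF receptor of fibroblasts, stood at 4.79, 4.54, 4.77, 5.23 and 4.5 in wild type liver 1 to 5, at 5.20, 6.94, 4.93, 5.28 and 5.38 in peritumoral liver 1 to 5 and at 4.52, 5.53, 5.25, 4.54 and 4.07 in tumors 1 to 5, with peritumoral 2 far above all others. Pdgfrb, the PDGF receptor of stellate cells and pericytes, stood at 5.79, 6.0, 5.88, 6.31 and 5.78 in wild type liver 1 to 5, at 6.18, 6.60, 6.44, 6.52 and 6.41 in peritumoral liver 1 to 5 and at 6.08, 5.75, 6.73, 6.01 and 4.77 in tumors 1 to 5. Peritumoral arrays 2 to 5 were above every wild type array, tumor 3 was the highest and tumor 5 the lowest of all 15. Tgfb1, the ligand itself, was 1.91-fold above the wild type mean in tumor 3 and between 5.30 and 5.74 in the other tumors. Thy1, a surface protein of fibroblasts and T cells, stood at 4.90, 5.68, 5.26, 4.94 and 5.17 in wild type liver 1 to 5, at 4.45, 4.72, 4.74, 4.74 and 4.23 in peritumoral liver 1 to 5 and at 4.37, 4.53, 5.15, 4.96 and 4.58 in tumors 1 to 5. All 5 peritumoral arrays were below all 5 wild type arrays, as they were for 2.08% of all genes.

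**Figure D2:**
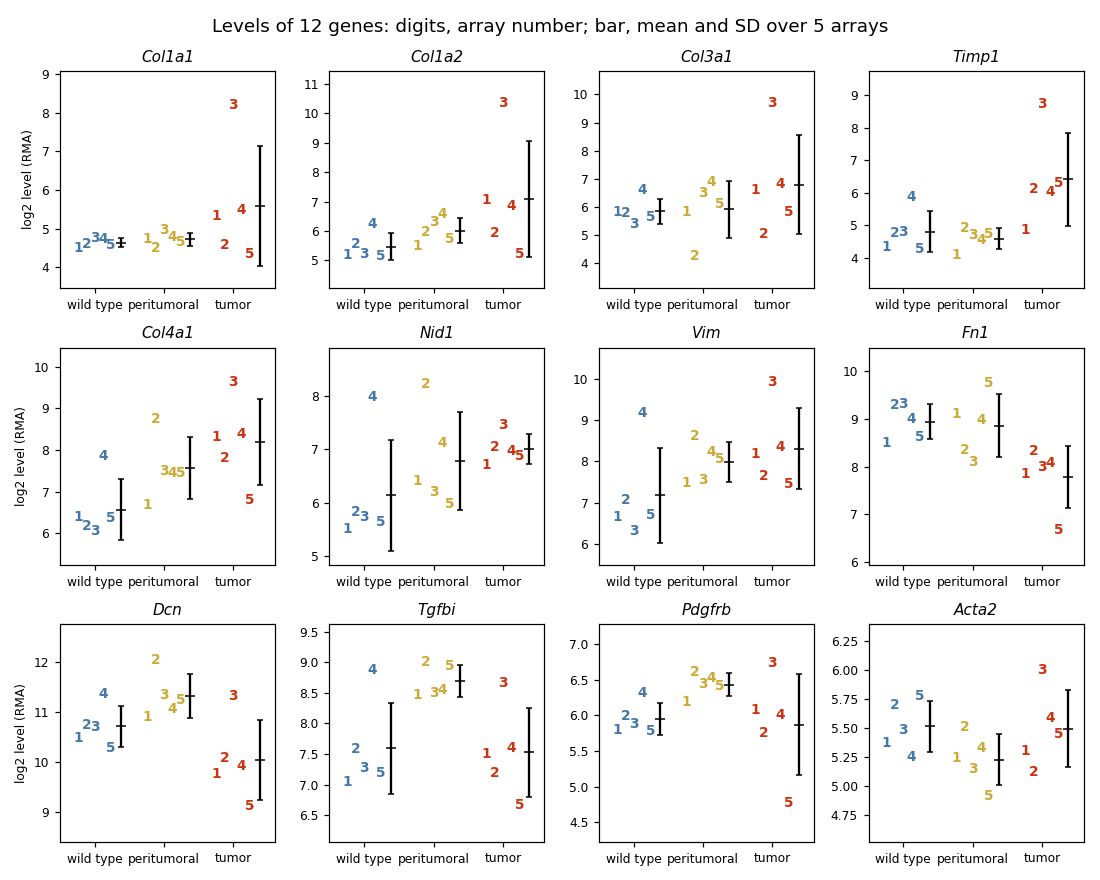
Log2 level (RMA) of 12 of the genes in each group, with each array drawn as its number and the mean and SD over 5 arrays as a bar beside it. Tumor 3 stands alone for Col1a1, at 8.21, and for Timp1, at 8.73. Wild type 4 stands apart within its own group for Nid1 and Vim. Fn1 has all tumors below all wild type arrays, as have 2.84% of all genes.

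In the comparison of tumors with wild type liver, 0 of the 34 genes passed, against 0.339% of all genes called higher and 0.226% called lower by limma. At an unadjusted p under 0.05, 5 were higher (Col4a1, Col4a2, Timp1, Timp3 and Tagln), against 7.46% of all genes, and 3 lower (Fn1, Des and Thy1), against 9.96%. A fit with array weights called 8, against 14.8% of all genes. The median log2 ratio was 0.49 over the 34 genes, 26 of which were above 0, and -0.05 over all genes. The median of the 34 was 0.09 without tumor 3. In settings chosen after the values had been seen, it was 0.61 without wild type 4 and tumor 2 and 0.87 without tumor 5 as well. By role the medians were 1.12 for basement membrane, 0.95 for fibrillar collagens, 0.54 for proteases and inhibitors and -0.08 for the small proteoglycans. Without tumor 3 these medians were 0.88, 0.29, 0.40 and -0.54.

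Peritumoral liver was compared with wild type liver as knockout tissue outside the tumor. Again 0 of the 34 genes passed, against 0.0323% of all genes called higher and 0.00807% called lower. At an unadjusted p under 0.05, 7 were higher (Pdgfrb, Tgfbi, Col4a2, Dcn, Col4a1, Lum and Pdgfra), against 5.18% of all genes, and 2 lower (Thy1 and Des), against 9.88%. With array weights 4 were called, against 8.73% of all genes. The median was 0.26 over the 34 genes and -0.06 over all genes. Without peritumoral 2 alone, 0 of the 34 genes passed, against 68 genes called over all genes. The median was then 0.15, and the log2 ratio of Pdgfra was 0.43 instead of 0.78. Thy1 was the 1 gene that did not overlap on the lower side, against 2.08% of all genes, and none did on the higher side, against 1.12%. The log2 ratio was -0.61 (SE 0.16, adjusted p 0.179) for Thy1, 0.48 (SE 0.12, adjusted p 0.159) for Pdgfrb and 1.09 (SE 0.31, adjusted p 0.202) for Tgfbi. By role the median was 0.08 for the fibrillar collagens and 0.76 for basement membrane.

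How many genes passed here depended on wild type 4 and peritumoral 2. Wild type 4 was the highest of its group for 26 of the 34 genes and peritumoral 2 for 21, against 23.4% and 34.9% of all genes. Leukocyte and Kupffer cell markers had a mean ratio of 1.23 in wild type 4, and of 0.47, 0.31 and 0.50 in peritumoral 2, 4 and 5, and their part in the result was not tested. Without wild type 4, Tgfbi passed at 1.41 on the log2 scale (adjusted p 0.00443), Vim with 1.31 (0.0380) and Pdgfrb with 0.57 (0.0316), against 1.19% of all genes called higher. Without both arrays, 10 genes passed as higher, which were Col4a1, Col4a2, Lum, Dcn, Bgn, Tgfbi, Timp3, Vim, Pdgfra and Pdgfrb, against 3.82% of all genes, and Thy1 passed as lower, against 3.91%. In those arrays Tgfbi stood between 8.46 and 8.94 in peritumoral liver and between 7.05 and 7.59 in wild type liver, Lum between 8.09 and 9.17 and between 6.85 and 7.76, and Vim between 7.47 and 8.23 and between 6.32 and 7.06. Type I and III collagens did not pass in either setting. The setting without both arrays was chosen after the values had been seen.

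Between tumors and peritumoral liver 0 of the 34 genes passed, against 0.0161% of all genes called higher, 2 genes or 1 with the replicate number as a block, and 0% called lower, and no gene of the set had groups that did not overlap, against 1.22% and 1.11% of all genes. At an unadjusted p under 0.05, Timp1 and Sparc were higher in tumors, against 4.65% of all genes, and Tgfbi, Dcn and Fn1 lower, against 4.63%. With the sample number as a block Pdgfra was also lower at that level, and none of the 34 passed. With array weights 3 genes were called, against 5.43% of all genes. In the 5 pairs of samples with the same number, Timp1 was higher in every tumor, as were 6.42% of all genes, and Dcn and Fn1 were lower in every tumor, as were 7.03%. The difference was as small as -0.02 in pair 3 for Dcn and in pair 2 for Fn1. The ratio was -1.16 (SE 0.32, adjusted p 0.26) for Tgfbi, -1.07 (SE 0.37, adjusted p 0.431) for Fn1 and 1.22 (SE 0.49, adjusted p 0.504) for Sparc. Without tumor 3, Tgfbi passed at -1.45 (adjusted p 0.0483), against 0.169% of all genes called lower, and the median over the 34 genes turned from 0.23 to -0.07. In settings chosen after the values had been seen, it was 0.37 without peritumoral 2 and tumor 2 and 0.57 without tumor 5 as well. Over all genes the median was 0.02.

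**Figure D3:**
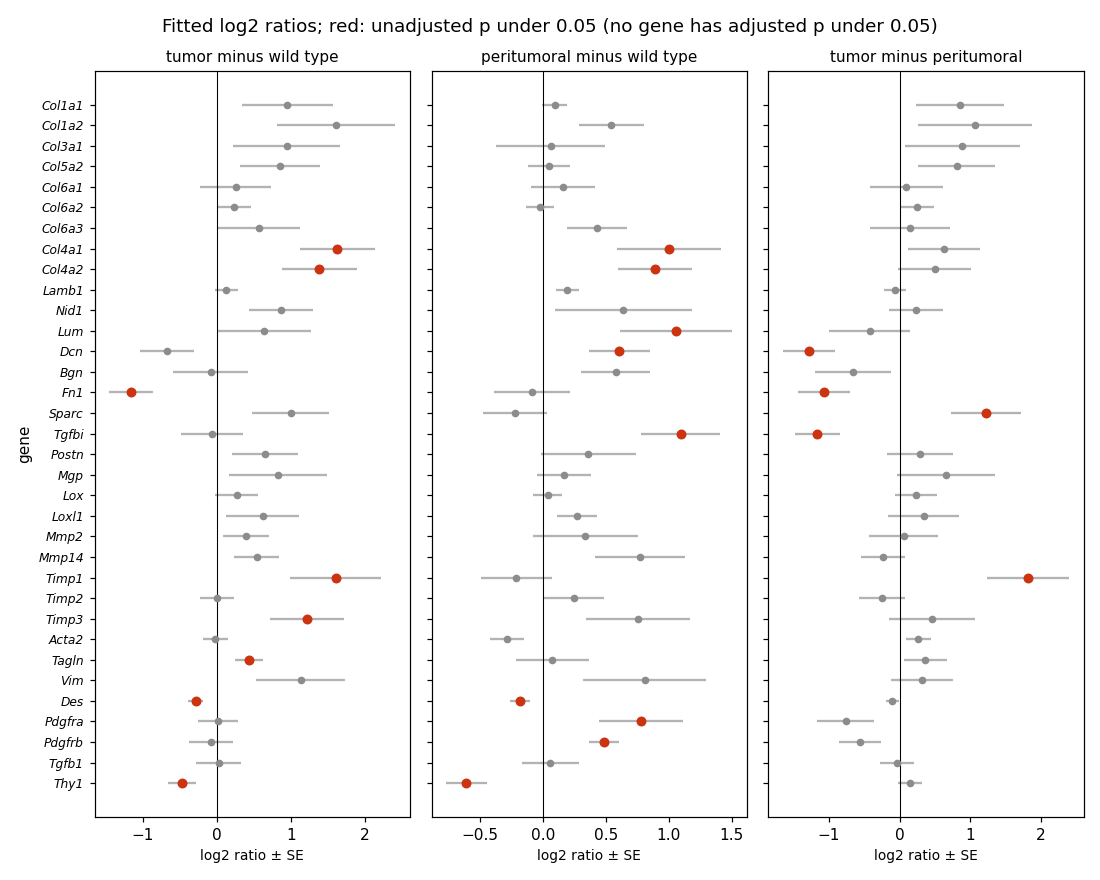
Log2 ratio with its standard error from limma for each of the 34 genes in the 3 comparisons, with genes at an unadjusted p under 0.05 in red. No gene passed after adjustment, Col4a1, Col1a2 and Timp1 have the largest ratios of tumors to wild type liver, and Tgfbi is above 0 in peritumoral liver and below 0 in tumors against peritumoral liver.

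Peritumoral 3, which shares its number with tumor 3, was far below that tumor in the fibrillar collagens, with mean ratios of 0.46 and 3.86. Within peritumoral liver it was second to array 4, at 0.69. Its Col1a1 level was 4.96, the highest of the wild type and peritumoral arrays, against 8.21 in tumor 3. Over the 34 genes its mean ratio to the wild type mean was 0.19. In peritumoral liver the mean was highest in arrays 2 and 4, at 0.70 and 0.50. In peritumoral 2 this came with Timp3, Pdgfra, Mmp2, Nid1 and type IV collagen, and with Col3a1 the lowest of the 15 arrays, while tumor 3 was the highest array for Col3a1. Tumor 5 was the opposite end, the lowest of the tumors for 19 of the 34 genes, against 22.9% of all genes. Col1a1, Dcn, Bgn, Fn1 and Pdgfrb were among the genes for which it was the lowest of the 15 arrays. It was an outlying array in general, the highest of the 15 for 18.4% of all genes. Peritumoral 2 and tumor 5 were 2 of the 3 KO arrays with a higher Mat1a level. Without wild type 4, peritumoral 2, tumor 2 and tumor 5, a setting chosen after the values had been seen, 6 genes passed in tumors against wild type liver. On the log2 scale the ratios were 2.54 (adjusted p 0.00290) for Col4a1, 2.25 (0.00602) for Col4a2, 2.13 (0.0167) for Vim, 1.78 (0.0343) for Sparc, 1.36 (0.00425) for Nid1 and -0.96 (0.0305) for Fn1, and the fibrillar collagens did not pass. In that fit 5.93% of all genes were called higher and 5.62% lower.

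Other matrix genes, in lists of genes outside the 34, passed only in tumors against wild type liver. Of 17 other collagens, Col5a3, a chain of type V collagen, was lower by a log2 ratio of -0.84 (adjusted p 0.0366), with 5.02, 5.01, 4.94, 4.53 and 5.22 in wild type liver 1 to 5, 4.13, 4.10, 4.33, 4.15 and 4.21 in peritumoral liver and 3.97, 3.90, 4.37, 4.23 and 4.06 in tumors. All knockout arrays were below all wild type arrays. The call was lost when tumor 1, tumor 4 or wild type 1, 2, 3 or 5 was left out. Tumor 3 was the highest of the 15 arrays for 4 of the 17 genes, among them Col5a1 at 6.12, Col8a1 at 5.78 and Col15a1 at 5.88. For Col7a1, at 5.02, and Col10a1, at 3.45, it was the lowest of the 15, and the mean ratio of the list in tumor 3 was 0.13.

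Genes for collagen folding and modification were high in tumor 3 as well. The collagen chaperone Serpinh1 stood at 8.24 there and at 5.40, 5.31, 5.85, 5.98 and 5.88 in wild type liver 1 to 5, the lysyl hydroxylase Plod2 at 5.19 and the prolyl hydroxylation partner Crtap at 8.20, and 7 of 16 genes of this list were highest in tumor 3. None of the 16 passed in a comparison, the smallest adjusted p in tumors against wild type liver being 0.126 for the prolyl hydroxylase P4ha1 (0.79) and 0.159 for Plod1 (-0.60). Among 31 other matrix proteins 12 were highest in tumor 3, Fstl1 among them at 8.16, and none passed, with vitronectin (Vtn) at a ratio of -0.42 (adjusted p 0.156). Among 19 other proteases and inhibitors, Plat, tissue plasminogen activator, had a ratio of 3.04 (adjusted p 0.126) with 9.25, 4.62, 7.16, 8.63 and 4.72 in tumors 1 to 5, and Mmp12, a macrophage elastase, 1.63 (0.182).

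Of 25 genes of TGF-beta signaling none passed in any comparison. In tumors against wild type liver Smad2, a signal carrier, had a ratio of 0.62 (adjusted p 0.0685) and the repressor Tgif1 0.79 (0.0826). The target gene Ccn2 stood at 6.81, 10.74, 7.31, 7.36 and 7.71 in peritumoral liver and 6.28, 8.99, 9.20, 6.41 and 6.83 in tumors, against 5.06, 6.05, 5.00, 8.20 and 7.13 in wild type liver, with peritumoral 2 highest. The ligand Tgfb2 was at 6.04 in tumor 3. Of the 4 PDGF ligand genes none passed, with Pdgfa at 0.59 (adjusted p 0.245) and Pdgfd at 0.34 (0.267).

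Markers of cells that could contribute to the set were read beside it, and their part in the results was not tested. Of 12 genes that mark quiescent stellate cells, none passed, and Reln and Ecm1 had ratios of tumors to wild type liver of -1.53 (adjusted p 0.165) and -0.97 (0.195). A summed level adds the unlogged levels of all genes of a list, so it follows the brightest probe sets. It is set side by side between arrays only and is no measure of the number of cells. The summed level of the quiescent stellate cell list was 10.5 to 10.9 in wild type liver, 10.7 to 11.3 in peritumoral liver and 9.31 to 11.4 in tumors, on the log2 scale. Lrat, the enzyme that stores vitamin A, was between 3.37 and 4.4 in all arrays. Rgs5, a gene of pericytes, was at 10.19 in tumor 3 and at 6.79, 6.90, 7.67, 7.72 and 6.84 in wild type liver. Smooth muscle markers Cnn1 and Actg2 were at 4.15 and 3.93 in tumor 3, within the range of the other arrays, and Myh11, at 3.80, was the lowest of the 15. Their list had a summed level of 7.10 to 7.66, 7.01 to 7.74 and 7.11 to 7.83 in the 3 groups, and tumor 3 had the highest of the 15. Over its 7 genes the mean ratio was 0.31 in tumor 3 and 0.34 in wild type 5, and 1 gene was highest in tumor 3.

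Bile duct markers were high in tumor 3 beside the collagens. There 5 of 6 were the highest of the 15 arrays, with Epcam at 7.54, Cldn7 at 7.13, Cftr at 5.29, Krt7 at 5.72 and Sox9 at 6.59, and Krt19 at 5.67 was below tumors 1 and 4 and wild type 5. Their summed level was 9.14 in tumor 3 and between 6.97 and 7.55 in the other 14 arrays. None of the 6 passed in a comparison. Endothelial Emcn passed in tumors against wild type liver, with a ratio of 1.67 (adjusted p 0.0461), all tumors above all wild type arrays and tumor 3 highest at 7.25, while Stab2, of sinusoidal endothelium, had a ratio of -1.15 (0.114). The endothelial list of 10 genes had a summed level of 9.68 to 10.3 in wild type liver, 9.40 to 10.01 in peritumoral liver and 9.20 to 9.85 in tumors.

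Wild type 4 carried the highest leukocyte and Kupffer cell markers, with a mean ratio of 1.23 over 15 genes and S100a8, a neutrophil gene, at 12.92 against 5.92 to 7.29 in the other wild type arrays. The summed level of this list was 11.3 to 14.5 in wild type liver, 11.9 to 13.2 in peritumoral liver and 12.03 to 12.5 in tumors. In tumor 3 its mean ratio was -0.22 and none of its genes was the highest of the 15. Fabp4, on the list of 4 adipocyte markers and also made by capillary endothelium, passed in tumors at 1.58 (adjusted p 0.0351), while Adipoq and Lep stood between 3.08 and 3.95 in all arrays. The calls of Emcn and Fabp4 were lost with, among others, wild type 1 left out (adjusted p 0.137 and 0.129). The portal fibroblast and mesothelial list had a mean ratio of 0.41 in tumor 3, with Fbln2 and Cd34 highest there at 6.19 and 6.20, and Msln and Upk3b, which mark mesothelium, at 3.98 and 4.16, within their ranges. Hepatocyte markers had mean ratios of -0.71, 0.10, -0.28, -0.52 and -0.71 in tumors 1 to 5, so tumor 3 was not the lowest, and 7 of 8 had a ratio of tumors to wild type liver below 0, with none passing.

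**Figure D4:**
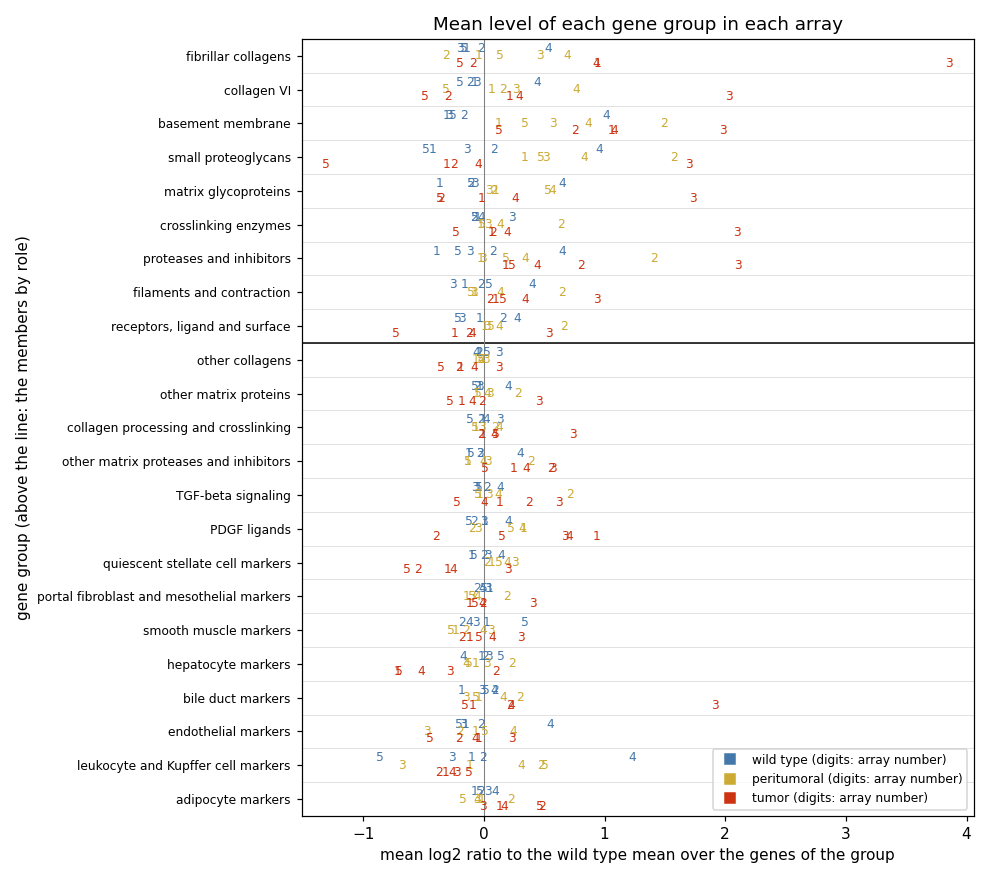
Mean log2 ratio to the wild type mean for each role of the 34 genes (above the line) and for the other gene lists (below it), with each array drawn as its number in the color of its group. Tumor 3 lies at 3.86 for fibrillar collagens and at 1.91 for bile duct markers, and wild type 4 leads the leukocyte and Kupffer cell markers at 1.23.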

How the data were processed

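RNA of 15 liver and tumor samples, 5 per group, was hybridised to Affymetrix mouse arrays, 1 array per sample. The deposited values are log2 expression values that the authors made with GCOS 1.4 and robust multi-array average (RMA), which corrects background, makes the arrays' distributions equal and combines probes. RMA compresses differences of dim probe sets, and arrays carry no read depth, so precision rests on 5 arrays per group. Per the labels the peritumoral and tumor samples are biological replicates, and for wild type liver only a replicate number is given, so its spread may be technical in part. Columns of ratios and tests hold the authors' own comparisons and were not used. Of 22690 probe sets, 64 controls, 691 with several symbols and those with none were left out, and 20380 were averaged per gene, as in the study.

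Groups were fitted in pairs with limma 3.58.1 (R 4.3.3), with Benjamini-Hochberg adjustment over 12393 genes at 0.05, and the fit was tested on simulated data. Values were read in Python 3.11.15 with pandas 2.3.3 and drawn with matplotlib 3.10.9. The members and all lists were chosen with earlier results of these data known. All members are named. Of each other list the genes that passed are named, or otherwise the 2 with the smallest p. Further genes of these lists are named as markers of a cell type, or for their level in tumor 3 or another array after the values had been seen. Tried besides were the brightest probe set of a gene, no cross-hybridizing probe sets, a fit over the 3 groups together, a replicate block, recentered or requantiled arrays, no dim genes, other variance settings, array weights, single probe sets and each array left out. Deviations of tumors and peritumoral samples of the same number had correlations of 0.353, 0.673, 0.271, 0.308 and 0.117 across genes. Tumor 4 matched peritumoral 1 best, and the other tumors matched the sample of their own number best. Pairing is thus uncertain, and the number was used as a block only as an alternative. Ratios and p-values are from fits without the block unless the block is named. With wild type numbers the correlations lay between -0.223 and 0.207. Promoters came from RefSeq, build GRCm38.p6.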

Additional observations from a re-analysis of the deposited data

Results flagged for a closer look

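In a group of 5 arrays, a highest or lowest value was marked where its gap to the nearest other value was over 0.71 of the group's range, which chance does in about 1 of 20 groups. Among the 34 genes this marked 14.7% in wild type liver, 11.8% in peritumoral liver and 23.5% in tumors, against 8.86%, 14.1% and 10.7% of all genes.

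In wild type liver the marked array was number 4 each time, standing above the other 4 with log2 levels of 4.86 for Col5a2, 6.31 for Col6a3, 7.85 for Col4a1, 7.99 for Nid1 and 9.16 for Vim. Wild type 4 was also the array with the highest leukocyte and Kupffer cell markers, and the part of those cells in these levels was not tested. In peritumoral liver it was number 2, with 4.28 for Lox, 7.79 for Timp3, 7.47 for Tagln and 6.94 for Pdgfra. In tumors it was number 3 for 7 genes, with 7.49 for Col5a2, 8.0 for Col6a2, 9.20 for Mgp, 5.28 for Lox, 7.02 for Loxl1, 6.77 for Mmp2 and 7.01 for Timp2. The 1 marked low value was Fn1 in tumor 5, at 6.68. Col1a1, Col1a2 and Col3a1 were not marked, since tumors 1 and 4 stood between tumor 3 and the rest.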

How the results depend on the processing

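How many of the 34 genes passed depended on single arrays and on array weights. In tumors against wild type liver the count was 0, and it was 8 with array weights, 0 to 1 with 1 array left out (1 without wild type 4), and, in settings chosen after seeing the data, 1 without wild type 4, peritumoral 2 and tumor 2, 6 without tumor 5 as well and 3 without wild type 4 and tumor 3. In peritumoral against wild type liver the count was 4 with array weights, against 1082 over all genes, and 0 to 3 with 1 array left out. It was 3 without wild type 4, against 267 over all genes. Without wild type 4 and peritumoral 2, a setting chosen after seeing the data, it was 11, against 958 over all genes. Between tumors and peritumoral liver the count of the 34 was 3 with array weights and 0 to 1 with 1 array left out (1 without tumor 3). With the replicate number as a block none of the 34 passed in any comparison. The median ratio of the 34 lay between 0.09 and 0.60, between 0.15 and 0.34 and between -0.072 and 0.31 in the 3 comparisons with 1 array left out, the lowest of the last being without tumor 3.

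Over all genes the count for tumors against wild type liver was 70, and 287 with 3 groups in 1 fit, 10 with the replicate block, 41 with trend and robust settings, 1838 with array weights, 10 to 319 with 1 array left out, 569 without wild type 4, peritumoral 2 and tumor 2, 1431 without tumor 5 as well and 391 without wild type 4 and tumor 3. For peritumoral against wild type liver it was 5, and 11 with the probe set of the highest mean, 12 with 3 groups, 0 with the replicate block, 1082 with array weights, 15 with single probe sets, 4 to 267 with 1 array left out and 958 without wild type 4 and peritumoral 2. For tumors against peritumoral liver it was 2, and 4 with the highest mean, 41 with 3 groups, 1 with the replicate block, 1 without dim genes, 673 with array weights, 4 with single probe sets, 0 to 36 with 1 array left out, 40 without peritumoral 2 and tumor 2 and 132 without tumor 5 as well. The cause was not tested.

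The ratio of Acta2 in tumors to wild type liver, -0.02, was 0.10 with the brighter probe set, 0.0035 without wild type 4 and tumor 2, 0.049 without tumor 5 as well and -0.15 to 0.070 with 1 array left out, and its ratio to peritumoral liver, 0.27, was -0.10 without probe sets that may cross-hybridize. The Timp1 ratio of peritumoral to wild type liver lay between -0.34 and 0.050 with 1 array left out. Of the 34 ratios, 24, 22 and 20 kept their sign in all settings in tumors against wild type liver, peritumoral against wild type liver and tumors against peritumoral liver. With the replicate block Col5a3, Emcn and Fabp4 no longer passed (adjusted p 0.159 each). The authors' ratios were not run as input, since they are comparisons of their own. Dim genes such as Lox, Gfap and Lrat are limited by background.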

Other observations

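The other gene lists passed nowhere outside tumors against wild type liver. In peritumoral against wild type liver the smallest p-values, given as log2 ratio and adjusted p from limma, belonged to Col5a3 (-0.76, 0.0598) and Col4a5 (1.06, 0.0626) among other collagens, Efemp1 (0.80, 0.132) and Matn2 (0.23, 0.237) among other matrix proteins, Plod1 (-0.40, 0.114) and Loxl4 (-0.58, 0.263) among collagen processing genes and Mmp9 (-0.24, 0.403) and Mmp10 (0.15, 0.535) among other proteases. Col4a5 encodes a further chain of type IV collagen, and it stood at 3.38, 3.46, 3.42, 3.55 and 3.49 in wild type liver 1 to 5, 4.59, 3.81, 4.92, 4.48 and 4.80 in peritumoral liver and 3.62, 3.49, 5.60, 3.80 and 3.93 in tumors. In TGF-beta signaling they were Smad2 (0.33, 0.334) and Tgfbr2 (0.55, 0.345), and among PDGF ligands Pdgfc (0.46, 0.485) and Pdgfd (0.13, 0.615). Among markers of quiescent stellate cells they were Rgs5 (0.71, 0.202) and Cygb (0.57, 0.245), of portal fibroblasts and mesothelium Entpd2 (0.51, 0.218) and Upk3b (-0.30, 0.302), of smooth muscle Myh11 (-0.20, 0.285) and Lmod1 (-0.32, 0.331), of bile ducts Krt19 (-0.38, 0.315) and Epcam (0.41, 0.457), of endothelium Clec4g (-0.89, 0.324) and Kdr (-0.41, 0.395), of hepatocytes Hnf4a (0.32, 0.479) and Apob (-0.12, 0.692), of leukocytes and Kupffer cells Cd79a (-0.27, 0.333) and Cd3e (-0.33, 0.356) and of adipocytes Adipoq (-0.22, 0.302) and Fabp4 (0.45, 0.448).

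In tumors against peritumoral liver the same lists gave Col14a1 (-0.97, 0.457) and Col8a1 (0.72, 0.472) for other collagens, Ecm1 (-1.35, 0.26) and Efemp1 (-1.57, 0.387) for other matrix proteins, Loxl3 (0.40, 0.534) and Bmp1 (-0.33, 0.629) for collagen processing, Mmp12 (1.66, 0.284) and Plat (2.85, 0.346) for other proteases, Smad7 (-0.65, 0.393) and Eng (-0.46, 0.501) for TGF-beta signaling and Pdgfa (0.54, 0.567) and Pdgfb (0.28, 0.737) for PDGF ligands. Efemp1, a fibulin of the matrix, stood at 7.86, 7.40, 8.38, 7.50 and 7.67 in peritumoral liver 1 to 5 and 5.37, 6.01, 8.33, 5.55 and 5.68 in tumors. The marker lists gave Reln (-1.82, 0.26) and Ecm1 (-1.35, 0.26) for quiescent stellate cells, Emcn (1.56, 0.152) and Stab2 (-1.06, 0.296) for endothelium, Cd34 (1.03, 0.429) and Gas1 (-0.57, 0.444) for portal fibroblasts and mesothelium, Cnn1 (0.19, 0.536) and Smtn (0.34, 0.551) for smooth muscle, Krt19 (0.66, 0.616) and Cldn7 (0.71, 0.71) for bile ducts, Hnf4a (-0.56, 0.505) and Tdo2 (-0.50, 0.572) for hepatocytes, Fabp4 (1.14, 0.173) and Retn (-0.12, 0.907) for adipocytes and Vsig4 (-1.21, 0.284) and Clec4f (-1.31, 0.301) for leukocytes and Kupffer cells, of which Vsig4 and Clec4f mark Kupffer cells. In tumors against wild type liver the lists without a call gave Cps1 (-0.95, 0.272) and Tdo2 (-0.51, 0.354) for hepatocytes, Clec4f (-1.28, 0.14) and Cd3e (-0.34, 0.195) for leukocytes and Kupffer cells, Cldn7 (0.79, 0.384) and Epcam (0.82, 0.488) for bile ducts, Smtn (0.31, 0.244) and Lmod1 (-0.21, 0.464) for smooth muscle and Upk3b (-0.37, 0.0969) and Entpd2 (0.79, 0.117) for portal fibroblasts and mesothelium.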
